A study of Mus musculus with 8 samples.

Results

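Medullary collecting duct nuclei were taken from single-nucleus RNA-seq libraries of mouse kidney by the transcripts they held. A nucleus was a member when it carried at least 1 UMI, that is 1 counted transcript, of Aqp2 and at least 1 UMI of at least 2 of the 4 genes Slc14a2, Aldh1a3, Aqp4 and Elf5, after barcodes with under 500 genes, under 800 UMIs or over 2% of UMIs on mitochondrial genes had been left out (QC nuclei). The rule found 2577 members among 81391 QC nuclei, or 3.17%, and among 12169 QC nuclei with an Aqp2 UMI. The 8 libraries came from 8 male C57BL/6J mice kept in 12 hours of light and 12 hours of darkness, 2 mice for each combination of genotype and time of collection. All mice carried Bmal1 alleles flanked by lox sites and all drank doxycycline at 2 mg/ml with sucrose at 20 mg/ml for 2 weeks from 8 weeks of age. The cKOt mice also carried Pax8-rtTA and LC1, so that doxycycline switched on Cre recombinase where the Pax8 promoter was active and Bmal1 (Arntl) was inactivated in renal tubules. Their littermates without these transgenes were the controls (Ctrl). Kidneys were collected 4 hours (ZT4) or 16 hours (ZT16) after lights on, after an interval without doxycycline and a further period under set light cycles. Nuclei were isolated from a central cross-section of frozen kidney that held cortex and both parts of the medulla, and were sorted by DNA staining.

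The collecting duct is the last stretch of the renal tubule, running from the cortex through the medulla to the papilla. Its principal cells respond to vasopressin through the Avpr2 receptor and cyclic AMP, which bring the water channel Aqp2 to the apical membrane, while Aqp3 and Aqp4 let the water out on the other side. In the inner medulla, urea transporters encoded by Slc14a2 add to the high osmolality that draws the water out, and the cells there live under salt and urea stress that the transcription factor Nfat5 answers. Aldh1a3 makes retinoic acid and Elf5 is an ETS family transcription factor. The molecular clock of these cells is a loop in which BMAL1 (Arntl) paired with CLOCK or NPAS2 activates genes through E-box sequences, the PER and CRY proteins hold this pair back, and NR1D1 and NR1D2 repress Arntl, Npas2 and Cry1 through elements at which the ROR receptors activate them.

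The 4 second genes of the rule were found together in 745 members, 3 of them in 905 and exactly 2 in 927. Aqp4 was the second gene seen most often, with a UMI in 91.1% of members, followed by Slc14a2 with 74.3%, Elf5 with 68.4% and Aldh1a3 with 59.2%. All 4 genes formed the commonest combination with 28.9% of members, and Aqp4 with Elf5 alone came next with 13.9%. These shares chose the members and are given as a description. In proximal tubule nuclei, defined as QC nuclei with a UMI of at least 6 of 8 proximal markers, Aqp2 had a UMI in 11.2% of nuclei, Slc14a2 in 10.4%, Aqp4 in 3.20%, Aldh1a3 in 1.503% and Elf5 in 1.01%, at a median of 7246 UMIs per nucleus against 4408 in members. A single UMI of Aqp2 or Slc14a2 was thus also met in nuclei of another type, and 130 of 16167 proximal nuclei, or 0.804%, met the whole rule.

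Genes of collecting duct principal cells that the rule did not use were present in members. Fxyd4, a regulator of the sodium pump, had a UMI in 71.2% of members against 5.07% of proximal nuclei, Aqp3 in 23.2% against 3.25% and Avpr2 in 18.1% against 0.810%. These genes do not tell medulla from cortex. A set of 2490 cortical Aqp2-positive nuclei was used for comparison, which were QC nuclei outside the rule with an Aqp2 UMI and a UMI of at least 2 of Scnn1b, Scnn1g, Hsd11b2 and Kcnj1. In these nuclei Fxyd4 had a UMI in 58.5%, Aqp3 in 34.5% and Avpr2 in 16.9%. Their 6 markers of the distal convoluted and connecting tubule, Slc8a1 among them, summed to 18779 CPM, against 1565 in members and 4648 in all other QC nuclei. The set thus carries many transcripts of that segment, and a difference from it is not one of medulla against cortex alone. The summed level of 6 genes of the collecting duct outside the medulla (Scnn1b, Scnn1g, Hsd11b2, Kcnj1, Kcnj10, Rhbg) was 262 CPM (counts scaled to a common library total) in members and 239 CPM in all other QC nuclei. It was 1897 CPM in the cortical set, which 4 of these 6 genes had chosen. The genes outside the rule thus mark members as collecting duct, the word medullary rests on the genes of the rule, and 411 members (15.9%) also met the gene criterion of the cortical set. The plot of levels in 3 kinds of nuclei shows this pattern.

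**Figure D1:**
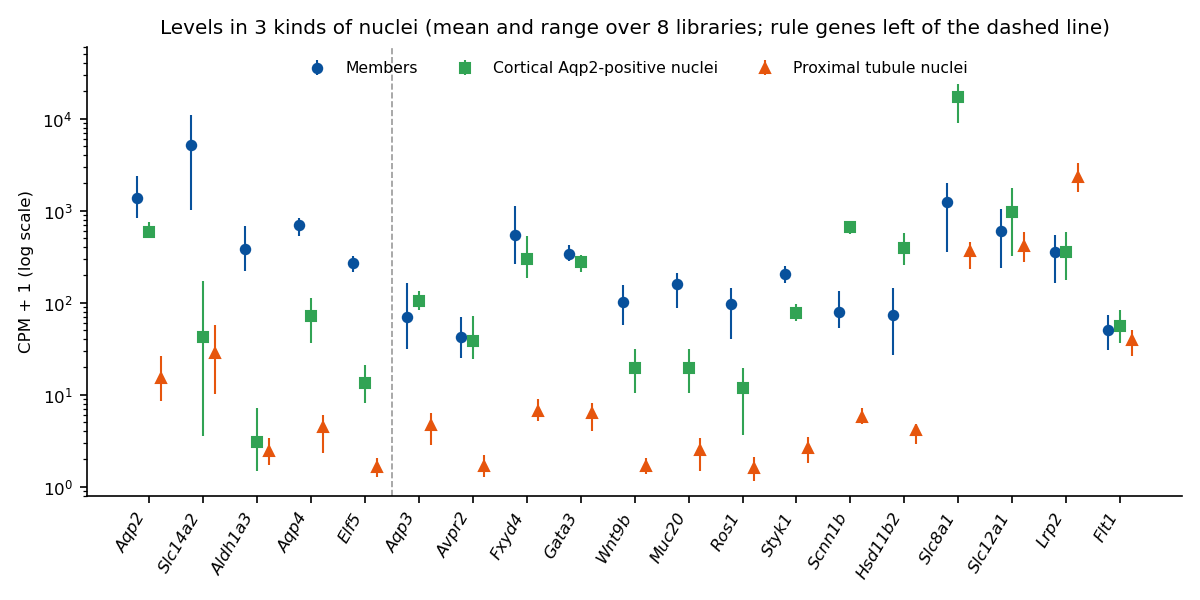
Level of 19 genes in CPM plus 1 (log axis) in members of the rule (circles), cortical Aqp2-positive nuclei (squares) and proximal tubule nuclei (triangles), with points at the mean and lines over the range of 8 libraries. The 5 genes left of the dashed line chose the members. To the right, Fxyd4 was at 546 CPM in members and 5.68 in proximal nuclei, and Scnn1b and Slc8a1 were higher in the cortical set than in members.

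Transcripts of other cell types were also counted in members, and every marker of each list was detected at least once. The 8 proximal tubule markers summed to 1769.5 CPM in members and 6191 CPM in all other QC nuclei. By group the proximal sum ran over 1762 to 2447 CPM in Ctrl at ZT4, 1119.9 to 1356 in Ctrl at ZT16, 1841 to 2302 in cKOt at ZT4 and 1662 to 1665 in cKOt at ZT16. It was lowest in Ctrl at ZT16 and its libraries did not overlap those of the other groups. The 6 markers of the distal convoluted and connecting tubule summed to 1603 to 2612 CPM, 1268 to 2119.7, 1098 to 2045 and 441 to 1337 in the same order of groups, and those of the thick ascending limb to 467 to 1627, 1206 to 1324, 695 to 929.7 and 499.8 to 896. Intercalated cell, endothelial, stromal, immune, podocyte and urothelial markers were each under 100 CPM in sum over members on average (54.6, 95, 23.1, 24.6, 9.3 and 3.19 CPM). Slc14a2 is also expressed in the thin descending limb, and the 4 markers of that segment summed to 35.1 CPM in members and 85.7 in the rest. Scrublet scored 247 members (9.58%) as doublets, and these were kept in the main results. Over the libraries this share ran from 6.84% to 12.8% in members and from 4.59% to 5.89% in all other QC nuclei. In the cortical set it ran from 6.75% to 14.1%.

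Members just inside the rule held exactly 2 second genes, and 2252 Aqp2-positive nuclei just outside it held exactly 1. These sets are split by the number of second genes, so a rise in the second genes is built in. From outside through exactly 2 to at least 3 second genes, the second gene Slc14a2 was at 411, 2550.4 and 6339 CPM. Aqp2, of which every nucleus of these sets had to hold a UMI, was at 569, 1101 and 1524 CPM. Scnn1b, a subunit of the epithelial sodium channel, was at 221, 183 and 26.5 CPM, and Slc8a1, the sodium-calcium exchanger of the connecting tubule, at 3913, 2281 and 766 CPM. Fxyd4 was highest just inside the rule, at 315, 628 and 502 CPM. Hsd11b2, which shields the mineralocorticoid receptor from glucocorticoids, was about level outside and just inside and lower beyond, at 167, 169.7 and 20.8 CPM. Median depth was 3868 UMIs outside, 4067 with exactly 2 and 5325 with all 4 genes, so depth rose with the number of genes seen. Members without a Slc14a2 UMI differed from those with one in genes the rule did not use. Adgrf1, an adhesion receptor, was at 11.5 CPM without Slc14a2 and 114 CPM with it, while Fxyd4 was at 822 and 447 CPM and Scnn1b at 184 and 41.6 CPM.

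The number of members per library was 254 and 211 in Ctrl at ZT4, 319 and 606 in Ctrl at ZT16, 377 and 328 in cKOt at ZT4, and 117 and 365 in cKOt at ZT16. As a share of QC nuclei this was 2.57% and 2.12%, 2.995% and 5.64%, 3.63% and 3.27%, and 1.34% and 3.33%. The second Ctrl library at ZT16 held the highest share (95% Wilson interval 5.22% to 6.10%, counting error only) and the first cKOt library at ZT16 the lowest (1.12% to 1.60%), so that the pairs at ZT16 differed more within a group than the group means did. Mean shares were 2.89% ± 1.05 in cKOt and 3.33% ± 1.58 in Ctrl (SD, n = 4), a difference of -0.438 percentage points (exact two-sided permutation test, p = 0.686), and 3.32% ± 1.77 at ZT16 and 2.90% ± 0.684 at ZT4, a difference of 0.428 points (exact two-sided permutation test, p = 0.714). With 4 against 4 libraries the smallest p that this permutation test could reach was 0.0286. With each nucleus thinned to 1000 UMIs the differences were -0.233 and 0.308 points, and 367, 258, 328 and 188 shallower nuclei of Ctrl at ZT4, Ctrl at ZT16, cKOt at ZT4 and cKOt at ZT16 were left out. Without the second Ctrl library at ZT16 the genotype difference became 0.333 and the time difference -0.345 points, and without the first cKOt library at ZT16 the genotype difference was 0.0804. How much medulla each cross-section held is unknown here, and its part in the shares was not tested.

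**Figure D2:**
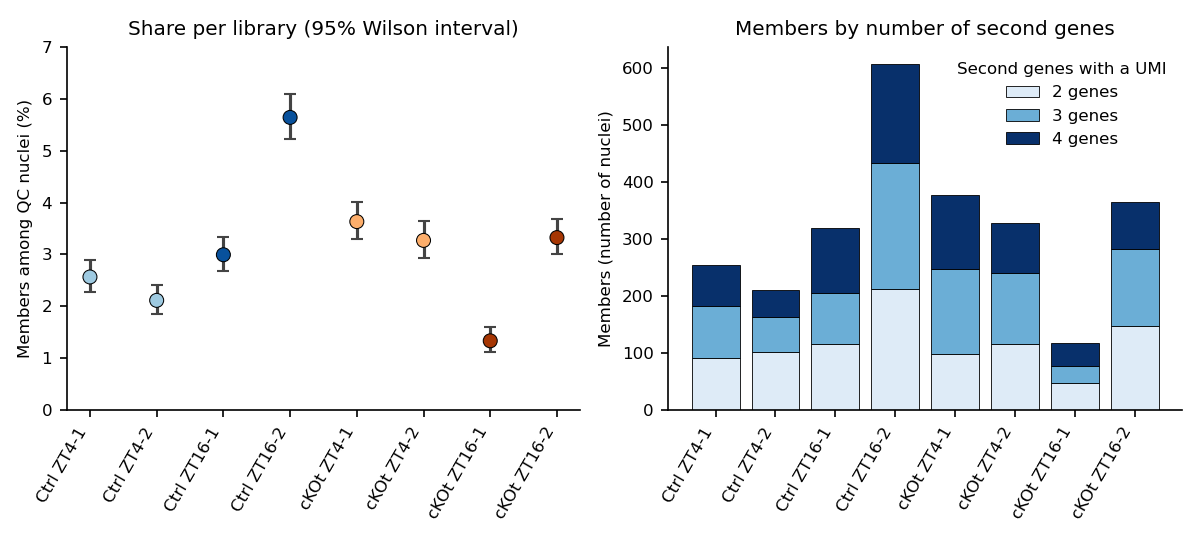
Left, share of QC nuclei that were members in each of 8 libraries (points, with 95% Wilson intervals). Right, number of members per library stacked by how many of the 4 second genes had a UMI. The share lay between 1.34% and 5.64%, both extremes at ZT16, and every library held members with 2, 3 and 4 second genes.

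The libraries held 8919 to 11083 barcodes and 36548873 to 54500820 UMIs in QC nuclei, and the members of a library summed to 766518 to 2988621 UMIs, the lowest in the first cKOt library at ZT16. Median depth of members was 4408 UMIs against 3683 in all QC nuclei. No barcode among members was shared between libraries, against 823 of 80565 barcodes over all QC nuclei. Replicates of a group differed by more than counting noise (chi-square per degree of freedom over genes 3.46 to 7.63) and were used as separate samples.

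Apart from the genes of the rule, the mRNAs most enriched in members over all other QC nuclei in every library were Wnt9b, Muc20, Adgrf1, Ros1, Sbspon, Frmpd4, Ptprh, Styk1, Fxyd4, Ptger1, Slc9a4 and Muc1. Since the members were chosen by their transcripts, these are a description with no test. Wnt9b, a Wnt ligand of the ureteric lineage, was at 102 ± 33.7 CPM in members (mean ± SD over 8 libraries), 18.4 in cortical Aqp2-positive nuclei and 2.23 in all other QC nuclei. Muc20, a membrane mucin, was at 158 ± 34.7 CPM against 18.4 and 4.67, and Muc1, another mucin, at 87.4 ± 22.3 CPM against 10.4 and 5.44. Both mucins and Wnt9b were thus higher in members than in either comparison set. Adgrf1 was at 91.3 ± 52.7 CPM in members and 0.741 in the cortical set, with a range of 30 to 160.0 CPM over libraries. Ros1, a receptor tyrosine kinase, was at 95.5 ± 30.8 CPM against 10.8 in the cortical set. Frmpd4, a scaffold protein, differed less between members and the cortical set, with 3771 ± 484 CPM in members and 2928 in the cortical set against 226 in the rest. Ptger1, the EP1 receptor for prostaglandin E2, was at 133 ± 61.1 CPM, 51.8 and 5.93 CPM in the same order.

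Long non-coding RNAs (lncRNAs) made up 19.7% of the UMIs of members, and 5346 lncRNA genes had a UMI in at least 1 member, against 16784 protein-coding genes. The lncRNAs most enriched in members by the same rule were AC106834.1, 9230110F11Rik, Gm42031, 9230112J17Rik, Gm12145, Gm49890, Gm48094 and E330013P04Rik. AC106834.1 stood first, with a UMI in 65% of members and 373 ± 80.8 CPM, against 8.75 CPM in cortical Aqp2-positive nuclei and 9.53 in all other QC nuclei, and its lowest library held 243 CPM. 9230110F11Rik was at 53.4 ± 32.5 CPM against 1.23 and 0.591. Gm48094 and 9230112J17Rik were shared with the cortical set, at 75.3 against 68.5 CPM and 35.2 against 33.1 CPM. By level, the first lncRNAs were Malat1 with 167253 CPM, Neat1 with 2875, Gm43305 with 985, 9530026P05Rik with 894 and Lncpint with 892 CPM. Gm43305 was the one of these that differed most between libraries, from 337 to 1848 CPM, and is taken up below with the genotypes.

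Of the genes of water and urea handling, Aqp2, Aqp4 and Slc14a2 belong to the rule. Aqp2 was at 839.8 and 965 in Ctrl at ZT4, 1458 and 1755 in Ctrl at ZT16, 911 and 1299 in cKOt at ZT4 and 2392 and 1523 in cKOt at ZT16 (CPM normalised by the trimmed mean of M-values, TMM, as in all values per library from here on, while ranges and means over libraries are in plain CPM). Every Aqp2 value at ZT16 was above every value of the same genotype at ZT4. Every member had to hold an Aqp2 UMI, and the median depth of members ran from 3946 to 6051 UMIs between libraries, so these values are a description with no test. Slc14a2 was at 10092 and 1949 in Ctrl at ZT4, 3111 and 11155 in Ctrl at ZT16, 6202 and 4171 in cKOt at ZT4 and 1006 and 3644 in cKOt at ZT16. It varied about as much within groups as between them, with the highest and the lowest library both at ZT16. Avpr2 was at 23.9 to 68.1 CPM and Aqp3 at 30.5 to 162 CPM over the libraries, and neither passed in any comparison. No call is read from the list of water, urea and vasopressin genes as a whole, since it holds these 3 genes of the rule.

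Of the detected genes listed as answering high osmolality, all but Slc6a6 were at higher mean levels in members than in the cortical set. Nfat5 was at 1247 ± 208 CPM against 698, Akr1b3, the aldose reductase that makes sorbitol, at 262 ± 119 against 44.9, Slc5a3, the inositol transporter, at 263 ± 118 against 121, and Cryab, a small heat shock protein, at 164 ± 63.5 against 37.9. Hspa1b, an inducible HSP70, was at 71.5 ± 36.1 CPM against 8.88. Slc38a2 was at 187 CPM against 145, Hspa4l at 49.8 against 37.7, Hspa1a at 33.7 against 4.65 and Slc6a12 at 7.55 against 2.37. The taurine transporter Slc6a6 was at 115 ± 35.4 CPM against 156, and of the heat shock and cold-inducible genes Hspa8 was at 109 against 104, Hspd1 at 57.6 against 58.3, Cirbp at 24.3 against 31.9 and Rbm3 at 29.4 against 35.5 CPM. Of the transcription factors, Pax2 was at 1613 ± 198 CPM, Gata3 at 335 ± 48.2 and Tfcp2l1, which is known for the choice between principal and intercalated cells, at 312 ± 91.1 CPM against 1358 in the cortical set. Pax8, whose promoter drives the transgene in cKOt, was at 809 to 1014 CPM over the libraries of members and had a UMI in 91.3% of them. Nr3c2, the mineralocorticoid receptor, was at 791 ± 189 CPM in members and 2304 in the cortical set, and Sgk1, a kinase that it induces, at 206 ± 54.5 and 69.1. None of these genes chose either set, but both sets were chosen by other transcripts of the same nuclei, and the differences in level were not tested.

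The comparison of genotypes asks what the loss of the tubular clock changes in these nuclei. Arntl, the targeted gene, was at 47.5 and 23.8 in Ctrl at ZT4, 113 and 98.5 in Ctrl at ZT16, 172 and 131 in cKOt at ZT4 and 176 and 189.8 in cKOt at ZT16. Its UMIs were higher in cKOt than in Ctrl in every library, with no overlap (log2 fold change 1.45, SE 0.20, edgeR adjusted p 0.016). The counts are not limited to the part of the gene that Cre removes, so they do not check the deletion itself, and this gene checks no label. Over both times, 13 of 13445 genes passed, or 0.0967%, of which 8 were higher and 5 lower in cKOt. At ZT4 6 of 12702 genes passed (0.0472%), 4 of them higher, and at ZT16 3 of 12927 (0.0232%), 2 of them higher. At an unadjusted p under 0.05 there were 625 genes over both times (4.65%), 545 at ZT4 (4.29%) and 389 at ZT16 (3.01%). DESeq2 called 22 genes over both times, 12 at ZT4 and 7 at ZT16, and these included all genes called by edgeR. P-values here rest on the spread between the 2 mice of a group, estimated jointly over all 4 groups in 1 fit of the 8 libraries. Lack of overlap between libraries was part of the choice of named genes, and its share over all genes tested was not counted. It is given below as a description that adds nothing to the test.

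The gene with the smallest adjusted p was Npas2. This partner of BMAL1 that can replace CLOCK was at 20.2 and 37.1 in Ctrl at ZT4, 77.9 and 63.8 in Ctrl at ZT16, 439.8 and 345 in cKOt at ZT4 and 368 and 336 in cKOt at ZT16. It was higher in every cKOt library than in every Ctrl library (log2 fold change 3.03, SE 0.19, edgeR adjusted p 2.98e-05), at ZT4 by 3.75 and at ZT16 by 2.32 on the log2 scale (adjusted p = 0.000229 and 0.0133). Clock itself was at 123 to 163 CPM over all libraries, with a log2 difference of 0.14 (SE 0.13), and Rora was at 595 to 1132 CPM with a difference of -0.01 (SE 0.14).

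Among the repressors, Cry1 rose and Per3 and Nr1d2 fell. Cry1 was at 8.8 and 6.31 in Ctrl at ZT4, 25.2 and 21.7 in Ctrl at ZT16, 63.4 and 40.4 in cKOt at ZT4 and 57.3 and 52.9 in cKOt at ZT16. All cKOt values lay above all Ctrl values (log2 fold change 2.01, SE 0.23, adjusted p 0.00344). Per3, a period gene, was at 66.9 and 80.6 in Ctrl at ZT4, 63.3 and 48.6 in Ctrl at ZT16, 14.5 and 14.4 in cKOt at ZT4 and 24.7 and 15.9 in cKOt at ZT16. It fell in cKOt by 1.93 on the log2 scale (SE 0.21, adjusted p = 0.00256) with no overlap between genotypes. Nr1d2, a REV-ERB receptor, was at 94.2 and 104 in Ctrl at ZT4, 33.6 and 38.7 in Ctrl at ZT16, 21.7 and 13.8 in cKOt at ZT4 and 16.9 and 13.5 in cKOt at ZT16. It fell by 1.88 (SE 0.20, adjusted p = 0.00256), also without overlap. Nr1d1, the other REV-ERB receptor, had 22 and 33 counts in Ctrl at ZT4 and between 1 and 9 in each other library, with a log2 difference of -1.81 (SE 0.43, adjusted p = 0.403). Per1, Per2, Cry2, Bhlhe40 and Nfil3 did not pass, with log2 differences of -0.92, 0.18, 0.18, 0.05 and 1.17. Of 9 repressors tested of 11 listed, 1 rose and 2 fell. None of the 8 clock outputs passed, including Dbp with -1.26 (SE 0.52) and Tef with -0.68 (SE 0.17), and their median log2 difference was -0.49 against -0.00 over all genes tested.

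**Figure D3:**
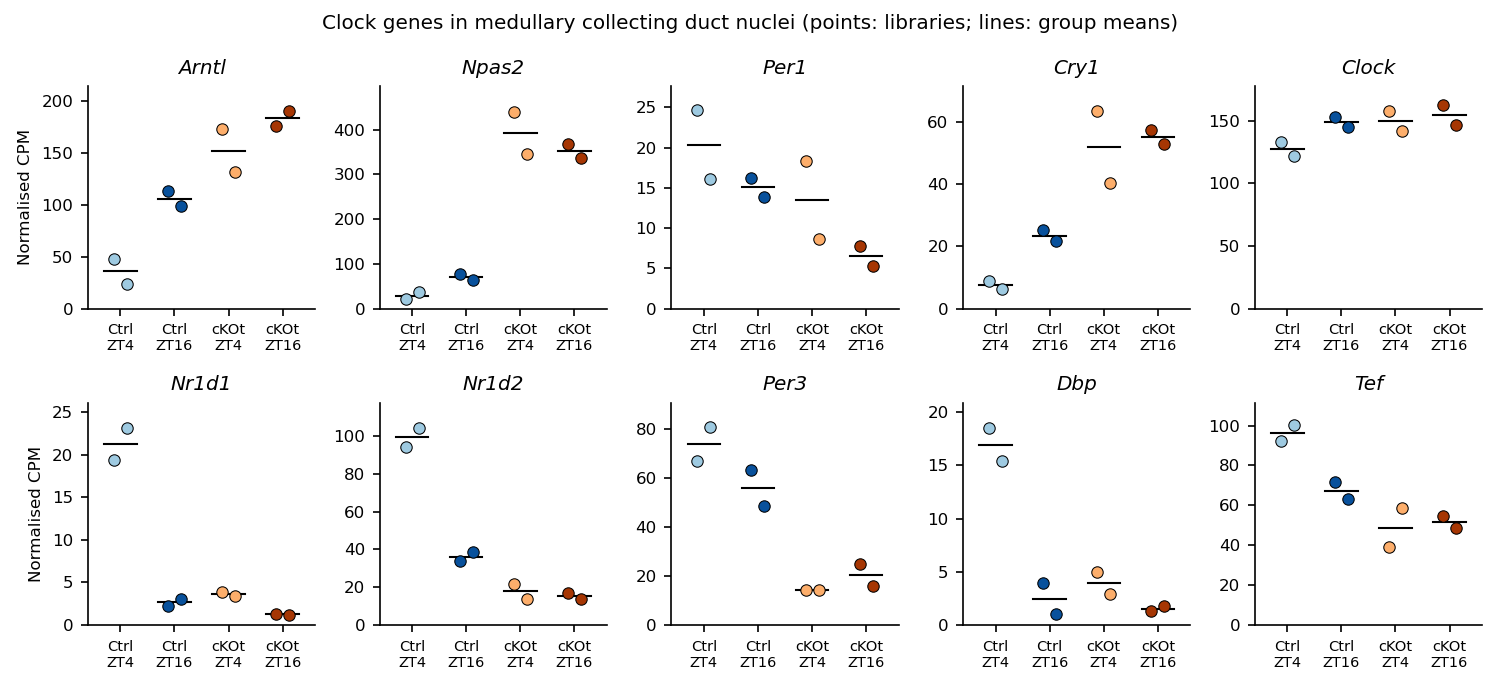
TMM-normalised CPM of 10 clock genes summed over the members of each library, with 2 libraries per group (points) and the group mean (line), each panel on its own linear axis from 0. Arntl, Npas2 and Cry1 were lowest in Ctrl at ZT4, Nr1d1, Nr1d2, Dbp and Tef were highest there, and Clock changed little.

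Effects of genotype were larger at ZT4 than at ZT16 for several of these genes, but no difference between the times passed the test. Arntl differed by 2.11 (SE 0.29) at ZT4 and 0.80 (SE 0.27) at ZT16 and Cry1 by 2.79 and 1.23. The test of this difference (genotype by time) gave -1.31 for Arntl (SE 0.39, unadjusted p = 0.006) and -1.56 for Cry1 (SE 0.46, unadjusted p = 0.00569). Over all 13445 genes the edgeR test of this difference called 0 genes (0.0%), 373 (2.77%) had an unadjusted p under 0.05, and DESeq2 also called 0. The smallest adjusted p was 0.902.

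Promoter windows of 5 clock genes that passed, and of Aqp2, were read from RefSeq on GRCm38.p6, from 250 bases before to 50 after a transcript start, to show whether they hold the letters of known clock elements. The motifs searched on both strands were the E-box CACGTG, the D-box TTATGTAA and the ROR element TAGGTCA. They occur in 7.15%, 0.938% and 2.61% of 32851 such windows. Of the 6 genes looked up, 4 held a match, and Npas2 and Nr1d2 held none. The 250 bases before the start of Aqp2 (chr15:99578806-99579055, plus strand), Cry1 (chr10:85185055-85185304, minus strand) and Per3 (chr4:151044666-151044915, minus strand) follow 5′ to 3′ on the gene's strand, with 27 bases after a start of Arntl (chr7:113207531-113207557, plus strand), and capitals mark the matches.
Aqp2: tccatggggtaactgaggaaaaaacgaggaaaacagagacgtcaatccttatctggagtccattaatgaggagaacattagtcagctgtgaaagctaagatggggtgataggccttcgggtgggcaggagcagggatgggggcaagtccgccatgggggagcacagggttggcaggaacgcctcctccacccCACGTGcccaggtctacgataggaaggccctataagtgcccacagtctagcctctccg
Cry1: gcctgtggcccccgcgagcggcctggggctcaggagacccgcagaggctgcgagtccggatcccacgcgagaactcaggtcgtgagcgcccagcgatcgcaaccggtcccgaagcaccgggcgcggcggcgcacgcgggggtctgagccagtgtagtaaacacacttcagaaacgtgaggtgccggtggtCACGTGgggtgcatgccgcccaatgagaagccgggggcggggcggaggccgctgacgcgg
Per3: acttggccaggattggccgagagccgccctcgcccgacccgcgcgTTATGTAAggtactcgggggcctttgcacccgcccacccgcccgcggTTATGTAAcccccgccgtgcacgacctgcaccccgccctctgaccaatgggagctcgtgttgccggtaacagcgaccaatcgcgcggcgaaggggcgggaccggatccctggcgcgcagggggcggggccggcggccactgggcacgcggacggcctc
Arntl: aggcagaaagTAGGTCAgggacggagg
The E-box began 58 bases before the start in Aqp2 and 60 bases before it in Cry1, both D-boxes of Per3 began 205 and 158 bases before its start, and the ROR element of Arntl began 30 bases after its start. A match is a description of these letters, and no binding was measured in these nuclei.

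Outside the clock, Tmprss13, a transmembrane serine protease, rose in cKOt. Its counts were 2 and 3 in Ctrl at ZT4, 3 and 7 in Ctrl at ZT16, 30 and 27 in cKOt at ZT4, and 14 and 46 in cKOt at ZT16, which is 1.76 and 2.1 in Ctrl at ZT4, 1.68 and 2.38 in Ctrl at ZT16, 16.7 and 15.6 in cKOt at ZT4 and 18.2 and 27 in cKOt at ZT16 CPM. All cKOt libraries were above all Ctrl libraries (log2 fold change 3.21, SE 0.35, adjusted p 0.00256), and the gene was called in all 17 alternatives over both times and in 8 of 17 at ZT16 alone. It was at 10.5 CPM in members, 1.68 in the cortical set and 0.281 in proximal nuclei. In all other QC nuclei its log2 difference was 1.14 (adjusted p = 0.082). The cortical set held too few counts to test it, and the difference between the sets in its response was 1.53 (SE 1.11, unadjusted p = 0.185).

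Gm43305, an abundant lncRNA, was at 729.7 and 486 in Ctrl at ZT4, 330.0 and 431 in Ctrl at ZT16, 1719 and 1845 in cKOt at ZT4 and 1712 and 679.9 in cKOt at ZT16. Overlap between genotypes is given as a description, since its share over all genes tested was not counted. Both cKOt libraries at ZT4 and the first at ZT16 stood above every Ctrl library, while the second cKOt library at ZT16 overlapped the Ctrl range (log2 fold change 1.60, SE 0.25, adjusted p 0.0447). It was the only called gene of the 13 whose genotypes overlapped, and it lost its call in 6 of 8 fits that left out a library. Its level in members was 985 CPM against 308 in the cortical set and 91.8 in proximal nuclei, and its log2 difference was 1.23 in the cortical set (adjusted p = 0.112) and 0.37 in all other nuclei (adjusted p = 0.723). Mgat4c, a glycosyltransferase gene, was at 254 and 367 in Ctrl at ZT4, 184 and 176 in Ctrl at ZT16, 114 and 125 in cKOt at ZT4 and 130.2 and 112 in cKOt at ZT16. It fell in cKOt by 0.98 (SE 0.15, adjusted p = 0.0416), without overlap, and lost its call in 11 of 17 alternatives. Its mean level was 877 CPM in the cortical set against 182 CPM in members, beside the sums of distal and connecting tubule markers given above, and their part in the difference was not tested.

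The remaining called genes are known from the proximal tubule or were higher there. Ces1d, a carboxylesterase, was at 29 and 35.7 in Ctrl at ZT4, 80.1 and 54.3 in Ctrl at ZT16, 6.67 and 4.61 in cKOt at ZT4 and 13 and 4.7 in cKOt at ZT16. It fell in cKOt (log2 fold change -2.81, SE 0.30, adjusted p 0.00256). Cyp2a4, a steroid hydroxylase, was at 15 and 14.7 in Ctrl at ZT4, 37.5 and 23.1 in Ctrl at ZT16, 0.556 and 2.88 in cKOt at ZT4 and 1.3 and 3.53 in cKOt at ZT16, and fell by 3.23 (SE 0.42, adjusted p = 0.0124). Both were lower in every cKOt library than in any Ctrl library. Hao2, a peroxisomal hydroxyacid oxidase, was at 5.28 and 9.81 in Ctrl at ZT4, 12.3 and 6.45 in Ctrl at ZT16, 31.1 and 100.3 in cKOt at ZT4 and 40.4 and 79.3 in cKOt at ZT16, and rose by 2.92 (SE 0.42, adjusted p = 0.022). Rhobtb1 was at 32.6 and 79.2 in Ctrl at ZT4, 92.4 and 132 in Ctrl at ZT16, 363 and 209 in cKOt at ZT4 and 241 and 237 in cKOt at ZT16, and rose by 1.71 (SE 0.25, adjusted p = 0.0289). Each was higher in every cKOt library than in any Ctrl library. Their levels in proximal nuclei were 72.8 CPM for Ces1d against 28.6 in members, 16.5 against 12.4 for Cyp2a4, 154 against 35.2 for Hao2 and 1398 against 171 for Rhobtb1. Of all 13 called genes, 8 were lower in members than in proximal nuclei, a share that was not counted over all genes tested. All 13 had the same sign in all other QC nuclei and 10 were called there. Of the 21428 genes tested there, 127 were called higher and 107 lower in cKOt. In the cortical set 9 of the 13 were called, and of 13084 genes tested there 20 were called higher and 5 lower. In the 1236 members with at most 2 of the 8 proximal markers, an alternative chosen after seeing the data, 11 genes were called and all 11 were among the 13, Ces1d, Cyp2a4, Hao2 and Rhobtb1 included, while Mgat4c was not called. Leaving out the second Ctrl library at ZT16 or the first or second cKOt library at ZT16 lowered the count to 7, 7 and 6, and leaving out the first cKOt library at ZT4 lowered it to 8.

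**Figure D4:**
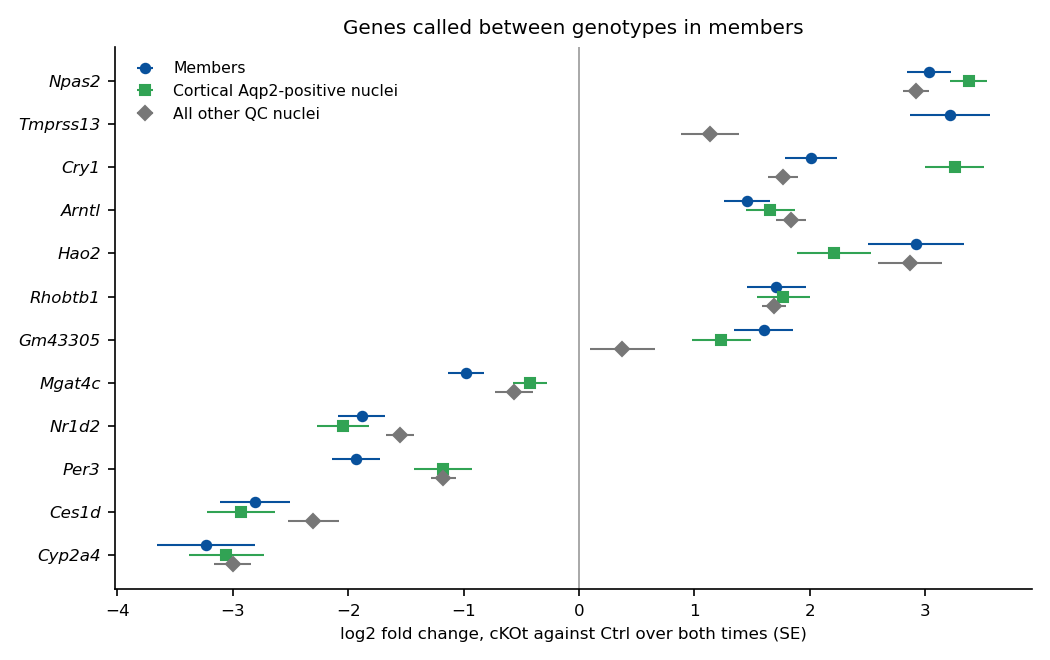
Log2 fold change, cKOt against Ctrl over both times, of 12 of the genes called in members (circles), beside the same fit in cortical Aqp2-positive nuclei (squares, Tmprss13 not tested) and all other QC nuclei (diamonds), with bars of 1 SE. The sign was the same in every set, Npas2 lay between 2.92 and 3.38, and the values for Tmprss13 and Gm43305 in members stood above those in all other nuclei.

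The comparison of times asks which transcripts differ between the light phase (ZT4) and the dark phase (ZT16). Within a genotype, edgeR called 0 of 13096 genes in Ctrl (0.0%) and 0 of 12516 in cKOt (0.0%). At an unadjusted p under 0.05 there were 786 genes in Ctrl and 680 in cKOt (6.0% and 5.43% of the genes tested), and DESeq2 called 33 and 8. Over both genotypes 18 of 13445 genes passed (0.134%), of which 2 were higher and 16 lower at ZT16. At an unadjusted p under 0.05 there were 1150 genes (8.55%), and DESeq2 called 51, including these 18. No clock gene passed between times in Ctrl members. An unadjusted p under 0.05 was reached by 4 of 9 repressors and 2 of 8 outputs tested, and by 6.0% of all genes tested. Of 5 activators tested, 3 were higher and 1 was lower at ZT16 at this limit. Nr1d1 had a log2 difference of ZT16 over ZT4 of -2.94 (SE 0.46, adjusted p = 0.0758), Nr1d2 differed by -1.45 (adjusted p = 0.0795), Dbp by -2.88 (adjusted p = 0.15), Arntl by 1.58 (adjusted p = 0.1) and Cry1 by 1.64 (adjusted p = 0.209).

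Of the 18 genes, 7 were at higher levels in members than in proximal nuclei. The share of all genes tested at higher levels in members was not counted, so this number is a description. Nxpe4, whose function is not well known, was at 117 and 82 in Ctrl at ZT4, 26.9 and 34.6 in Ctrl at ZT16, 79.5 and 109 in cKOt at ZT4 and 26 and 35.3 in cKOt at ZT16. All ZT16 libraries were below all ZT4 libraries in both genotypes (log2 fold change -1.63, SE 0.20, adjusted p 0.0221). Myo3b, a class III myosin, was at 295 and 264 in Ctrl at ZT4, 150.2 and 113 in Ctrl at ZT16, 281 and 232 in cKOt at ZT4 and 105 and 107 in cKOt at ZT16, and fell by 1.18 (SE 0.15, adjusted p = 0.0221). Hdac9, a class IIa histone deacetylase, was at 239 and 158 in Ctrl at ZT4, 69.5 and 54.3 in Ctrl at ZT16, 115 and 164 in cKOt at ZT4 and 29.9 and 59.9 in cKOt at ZT16, and fell by 1.62 (SE 0.23, adjusted p = 0.0321). Tmc1, known as a channel of inner ear hair cells, had 65 and 40 counts in Ctrl at ZT4, 2 and 6 in Ctrl at ZT16, 49 and 134 in cKOt at ZT4, and 1 and 15 in cKOt at ZT16. It fell by 3.83 (SE 0.49, adjusted p = 0.0221). Tmc1 was at 25.3 CPM in members, 0.78 in the cortical set and 0.567 in proximal nuclei. Lgi1, a secreted leucine-rich protein, was at 38.7 and 19.6 in Ctrl at ZT4, 3.92 and 0.679 in Ctrl at ZT16, 10.6 and 24.8 in cKOt at ZT4 and 2.6 and 3.53 in cKOt at ZT16, and fell by 3.12 (SE 0.50, adjusted p = 0.044), and the lncRNA Gm42723 fell by 3.38 (SE 0.54, adjusted p = 0.046) from 15 to 0.73 CPM in Ctrl and from 15.1 to 2.77 CPM in cKOt. Both were under 3 CPM in the cortical set and under 1 CPM in proximal nuclei.

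Cyyr1, a membrane protein with cysteine and tyrosine repeats, was the other gene of these 7, and with Gm21887 it made up the genes that rose. Cyyr1 was at 12.3 and 9.11 in Ctrl at ZT4, 29.1 and 37.7 in Ctrl at ZT16, 11.1 and 14.4 in cKOt at ZT4 and 29.9 and 47.6 in cKOt at ZT16. All ZT16 libraries were above all ZT4 libraries (log2 fold change 1.65, SE 0.24, adjusted p 0.0349). Cyyr1 was not called without doublets, with at least 3 second genes, with equal numbers of nuclei or with at most 2 proximal markers. Its log2 difference ran from 1.44 to 1.95 over 17 alternatives. Gm21887, a lncRNA, was at 0.88 and 2.8 in Ctrl at ZT4, 31.9 and 16.6 in Ctrl at ZT16, 1.67 and 4.04 in cKOt at ZT4 and 16.9 and 17.6 in cKOt at ZT16. It rose by 3.08 (SE 0.43, adjusted p = 0.0321) and its mean level was 11.8 CPM in proximal nuclei and 11.5 CPM in members.

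The other 10 genes that fell were lower in members than in proximal nuclei. The summed proximal markers in members moved the same way, with every library at ZT16 (1119.9 to 1665 CPM) below every library at ZT4 (1762 to 2447 CPM), and their part in the calls between times was not tested. Nox4, an oxidase that produces hydrogen peroxide in the kidney, was at 205 and 238 in Ctrl at ZT4, 84.6 and 74.4 in Ctrl at ZT16, 153 and 162 in cKOt at ZT4 and 116 and 120.5 in cKOt at ZT16. It fell by 0.95 (SE 0.14, adjusted p = 0.0345) and was at 883 CPM in proximal nuclei against 143 in members. The difference of Nox4 was -0.41 without doublets and -0.22 with at most 2 proximal markers, and it was called in neither. Fhit, a dinucleoside hydrolase, fell by 1.10 (SE 0.16), Lrmda by 1.03 (SE 0.17), Slc7a9, the cystine carrier of the proximal brush border, by 1.48 (SE 0.24), Alk, a receptor tyrosine kinase, by 2.15 (SE 0.31), Kcnb2, a potassium channel, by 1.91 (SE 0.32) and Dnah7b, a dynein chain, by 1.01 (SE 0.17). The lncRNAs C330002G04Rik, Gm28905 and Gm37245 fell by 1.52, 2.39 and 1.16. Without doublets, Alk was at -0.97, Kcnb2 at -1.26, Slc7a9 at -1.02, C330002G04Rik at -0.98 and Gm37245 at -0.65, and with at most 2 proximal markers Slc7a9 was at -0.69, C330002G04Rik at -0.65 and Gm37245 at -0.17, with none of these called. The adjusted p of these 10 genes ran from 0.0345 to 0.0484. All 18 genes had the same sign in all other QC nuclei, where 8 were called, and none was called in the cortical set. Of all genes tested, 67 were called higher and 136 lower at ZT16 in all other QC nuclei (21428 tested). In the cortical set these numbers were 14 and 16 (13084 tested). In members with at most 2 proximal markers 7 genes were called, 6 of them among the 18 (Myo3b, Nxpe4, Hdac9, Tmc1, Fhit and Lrmda). The count was 0 without either Ctrl library at ZT16, without either cKOt library at ZT16 or without the second cKOt library at ZT4, it was 7 without the first cKOt library at ZT4, and it was 27 and 28 without the first and second Ctrl library at ZT4.

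**Figure D5:**
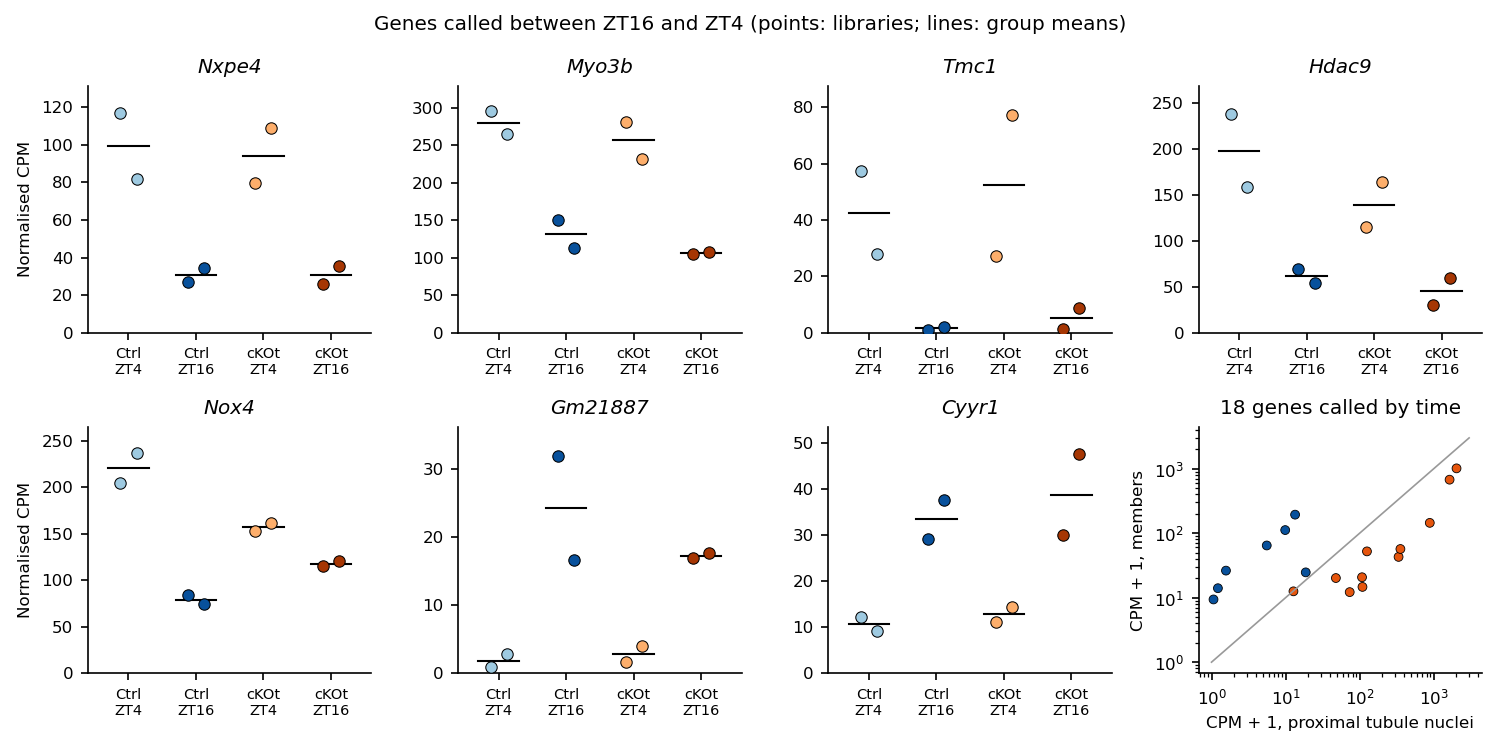
TMM-normalised CPM in members of 7 genes called between times, with 2 libraries per group (points), group means (lines) and linear axes from 0, and in the last panel the level in CPM plus 1 (log axes) of all 18 called genes in members against proximal nuclei. Nxpe4, Myo3b, Tmc1, Hdac9 and Nox4 were lower and Gm21887 and Cyyr1 higher at ZT16 in both genotypes, and 11 of the 18 genes lay below the line of equal level.

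Whether members responded differently from cortical Aqp2-positive nuclei of the same libraries was tested directly, with the library as a block. The cortical set carried the high sum of distal and connecting tubule markers given above. For genotype 1 of 13981 genes passed (0.00715%), and 539 (3.86%) had an unadjusted p under 0.05. This was Thsd7a, a thrombospondin-domain protein, which was at 15.8 and 28.7 in Ctrl at ZT4, 8.4 and 21.7 in Ctrl at ZT16, 52.8 and 31.7 in cKOt at ZT4 and 16.9 and 46.4 in cKOt at ZT16 in members. It differed by 1.00 (SE 0.36) between genotypes in members and by -1.15 (SE 0.24) in the cortical set, neither of which passed alone, and the difference of these was 2.12 (SE 0.26, adjusted p = 0.0025). The call was lost without doublets, with at least 3 second genes required and without the second cKOt library at ZT16. None of the clock genes differed between the sets after adjustment, Cry1 being nearest with -1.25 (SE 0.37, unadjusted p = 0.00347).

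For time 19 of 13981 genes passed (0.136%), of which 2 were higher in members relative to the cortical set at ZT16 and 17 lower, and 1216 (8.7%) had an unadjusted p under 0.05. Of the 19, 16 were lower in members than in proximal nuclei, a share that was not counted over all genes tested. Lrmda differed by -1.03 between times in members and by -0.04 in the cortical set, a difference of -0.98 (SE 0.14, adjusted p = 0.00746), and it was the only one of the 19 that was also called without doublets. Without doublets 4 genes were called, among them Zbtb16 and Hdac9, which the main test did not call. Kcnb2 differed by -1.91 in members and 0.94 in the cortical set (difference -2.98, SE 0.42, adjusted p = 0.00714). Ralyl and Slc35g1, whose change by time was more positive in members, had differences of 1.30 (SE 0.24) and 0.78 (SE 0.15). The count was 0 without either cKOt library at ZT16, 3 without the second Ctrl library at ZT16, 11 without either cKOt library at ZT4, and 79 and 82 without the first and second Ctrl library at ZT4.

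With 0.0% to 0.134% of all genes called in these comparisons, lists of this size would mostly hold no called gene, and none is read as unchanged. Of 16 lists, the clock activators and the clock repressors were the only ones with a call in any of the 7 comparisons of time and genotype within members. Sodium and potassium transport had 13 of 14 genes tested, with a median log2 difference of -0.29 for cKOt over Ctrl against -0.00 over all genes tested, and 11 of the 13 on the lower side. The list holds Scnn1b, Scnn1g, Kcnj1 and Kcnj10, which are also markers of the collecting duct outside the medulla. The sum of the 6 markers of that kind in members was 175 to 414 CPM in Ctrl at ZT4, 247 to 420.3 in Ctrl at ZT16, 153 to 212 in cKOt at ZT4 and 191 to 282 in cKOt at ZT16, and its part in the list's values was not tested. Scnn1g, a subunit of the epithelial sodium channel, was at 40.5 and 91.1 in Ctrl at ZT4, 68.9 and 50.9 in Ctrl at ZT16, 23.9 and 40.9 in cKOt at ZT4 and 65.1 and 38.2 in cKOt at ZT16 and differed by -0.65 (SE 0.28, unadjusted p = 0.0408), with values that overlapped between genotypes. Corticosteroid receptors and targets had 10 genes tested and a median of -0.29 in the same contrast. Hypertonicity genes had 10 tested, with medians of 0.39 for time in Ctrl and -0.48 for time in cKOt, against 0.0096 and -0.0097 over all genes tested, and none of the 10 passed. For the difference of the time effect between genotypes, Akr1b3 alone among them had an unadjusted p under 0.05, which 2.77% of all genes tested had. Akr1b3 was at 399.6 and 106 in Ctrl at ZT4, 249 and 414 in Ctrl at ZT16, 360.3 and 285 in cKOt at ZT4 and 133 and 167 in cKOt at ZT16, with pairs that differed within Ctrl at ZT4 by more than the group means did. In Ctrl at ZT4, 203 of 254 and 102 of 211 members held a Slc14a2 UMI, and at ZT16 190 of 319 and 526 of 606. In cKOt these were 327 of 377 and 262 of 328 at ZT4, and 58 of 117 and 246 of 365 at ZT16. The part of this mix in the values of the hypertonicity genes was not tested. Egr1, an immediate early gene, ranged over 2.83 to 469 CPM between libraries, with both low and high libraries in 3 of the 4 groups, and none of the 8 immediate early genes tested passed. Prostaglandin, endothelin and nitric oxide genes had 9 of 15 tested, transcription factors of the collecting duct 19 of 21 (Elf5 of the rule among those listed), junction genes 11 of 12, retinoid enzymes and receptors 11 of 12 (Aldh1a3 of the rule among those listed), heat shock genes 10 of 10, purinergic and urinary signalling 6 of 6, injury genes 3 of 8, and named lncRNAs 6 of 7, with 0 called by edgeR in each. A gene that was not called may still differ, as log2 differences as large as that of Nr1d1 did not pass.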

How the data were processed

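Nuclei of frozen mouse kidneys were profiled with 10x 3′ v3.1 chemistry. The authors counted UMIs per gene with Cell Ranger 7.1.0, and the deposited filtered matrices hold raw counts for 32285 features. The labels name GRCm39 and the methods an mm10 reference, so the build of the counts is not certain, and the sources used here do not say how intron reads and strand were handled. No column of another series was met (0).

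Members were found by the stated rule, and their counts were summed per library, mitochondrial genes left out. A gene was tested with at least 5 counts in both libraries of a compared group. The edgeR 4.0.16 quasi-likelihood test with TMM factors was fitted to 4 groups over all genes, with Benjamini-Hochberg adjustment per contrast and a limit of 0.05. Genes that passed are called. DESeq2 1.42.0 was an alternative, as were the other normalisation, no filter, separate fits of mRNAs and lncRNAs, doublets left out (Scrublet, expected rate 0.08), at least 3 second genes, 117 members per library, the replicate block and each library left out. Shares used exact permutation tests. SE is the absolute log2 fold change over the square root of F. The test was run on simulated data first. Depth per library is 36548873 to 54500820 UMIs, and intervals cover counting error only.

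Named genes are list members, up to 5 called genes per direction with the smallest p and no overlap, leading and most abundant genes. Other called genes were named after their values were seen. Members and lists were chosen with earlier results of these data known. 1 called gene is not reported here.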

Additional observations from a re-analysis of the deposited data

Results flagged for a closer look

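The share of members among QC nuclei in the 4 cKOt libraries was flagged because 1 library stood apart: the first cKOt library at ZT16, with 1.34%, lay far below the other 3, with a gap of 0.842 of the whole range. This was tested in 4 sets of 4 libraries, and chance flags about 1 in 20 for each set, so more often over all 4 sets.

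The remaining flags are differences between members and cortical Aqp2-positive nuclei in their log2 change, by the test of the difference itself. For ZT16 against ZT4, the difference was 1.30 for Ralyl, 0.78 for Slc35g1, -0.996 for Gm42397, -1.11 for Keg1, -2.98 for Kcnb2, -0.98 for Lrmda and -1.19 for Itgb8. For cKOt against Ctrl it was 2.12 for Thsd7a. Without doublets these values were 1.11, 0.63, 0.27, -0.11, -1.07, -0.97, -0.62 and 1.64 in the same order, and Lrmda was the only one still called. Ralyl was called in 3 of 11 alternatives. Gm42397, Keg1, Kcnb2, Lrmda and Itgb8 were at higher levels in proximal nuclei than in members, and Ralyl, Slc35g1 and Thsd7a at lower levels.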

How the results depend on the processing

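Over the named genes, 1035 values under the alternatives kept the direction and the side of the threshold, 348 lost the call, 14 gained one and 5 reversed. The kept values include many of genes not called in the main fit, which had no call to lose, so they overstate how stable the calls were. With DESeq2, counts of called genes were 33 for time in Ctrl, 8 for time in cKOt, 12 for genotype at ZT4, 7 at ZT16, 51 for time over both genotypes and 22 for genotype over both times. Without a filter they were 142, 115, 91, 88, 306 and 149 in that order, 45 for the difference between genotypes, and 205 and 33 for the differences from cortical nuclei in time and genotype. mRNAs and lncRNAs fitted apart gave 7, 1 and 30 for time in Ctrl, in cKOt and over both. At least 3 second genes gave 2 for time in Ctrl, and 53 and 0 for the differences from cortical nuclei. Equal numbers of nuclei gave 6 for genotype at ZT16 and 30 over both times. At most 2 proximal markers gave 2 for time in Ctrl, 1 for genotype at ZT16 and 7 for time over both, and reversed Hlf in time (0.34). Without doublets the differences from cortical nuclei fell to 4 and 0, and Gm42397 (0.27), Ntn1 (0.59), Gm33906 (0.22) and Pdzd2 (0.24) reversed. The cause was not tested.

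Leaving out 1 library gave 0 to 9 called genes for time in Ctrl, 2 to 11 for genotype at ZT4, 0 to 3 at ZT16, 0 to 28 for time over both genotypes, 6 to 17 for genotype over both times, and 0 to 82 and 0 to 8 for the differences from cortical nuclei in time and genotype. The genotype difference in share ran from -0.843 to 0.333 points and that of time from -0.345 to 1.09, and among Aqp2-positive nuclei the time difference was -2.44. Without the first cKOt library at ZT16 the genotype difference was 0.0804.

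Between same-numbered libraries the correlation of deviations from the group means, over 7109 genes, was over 0.1 in 3 of 6 pairs of groups (0.32 between genotypes at ZT16, 0.198 at ZT4 and 0.102 between times in cKOt) and ran down to -0.236 between times in Ctrl. The labels tie no mice by number, and pairing was not taken as shown. With the replicate block the counts were 2 for time in Ctrl, 0 in cKOt, 6 for genotype at ZT4, 1 at ZT16, 16 for time over both, 13 for genotype over both and 0 for the difference between genotypes. Ces1d and Tmprss13 were then not called at ZT16.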
